A study of Homo sapiens with 24 samples.

Results

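The 77 genes described here carry the symbols given to proteins of the mitochondrial ribosome. The members are every gene whose symbol was MRPL or MRPS followed by a number and at most 1 letter. All 77 were listed in the Tet-One and Tet-MIST1 tables, which held 13879 genes each, and 76 were listed in the Tet-PTF1a table of 14053 genes, where MRPS24 was not among the genes. Every listed member passed the filter on low counts used here, so no listed member was lost before testing. The authors had applied their own filter on low counts. Whether that filter removed MRPS24 from the Tet-PTF1a table was not tested. By role, 29 members belong to the large subunit and have a bacterial counterpart, and 21 belong to the large subunit and are specific to mitochondria. Another 17 are small-subunit proteins with a bacterial counterpart, and 10 were counted as small-subunit proteins specific to mitochondria. MRPS36 was placed among these 10 by its symbol alone. MRPS18A and MRPS30 were counted with the large subunit, where their proteins sit despite their names.

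Mitochondria keep their own ribosomes, which translate the few messages of the mitochondrial genome into core subunits of the respiratory chain. The RNA of this ribosome is transcribed inside the organelle, whereas all of its proteins are encoded in the nucleus, made in the cytosol and imported. Doxycycline, the drug that switches on the Tet-One promoter, is a tetracycline and is also known to inhibit translation on mitochondrial ribosomes. Cells with an empty plasmid therefore give the comparison in which Dox acts without an induced transcription factor.

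RNA was sequenced from Panc-1, an established human pancreatic ductal carcinoma line, after stable transfection with the Tet-One plasmid and selection in puromycin. Tet-One cells carried the plasmid with no insert, Tet-MIST1 cells the rat MIST1 open reading frame with a myc tag, and Tet-PTF1a cells the mouse PTF1a open reading frame with a myc tag, both acinar transcription factors of the bHLH class. Each line was screened as individual clones for Dox induction, so that a difference between lines cannot be told apart from a difference between clones. The labels give passage 33 for Tet-MIST1 and passage 32 for both other lines. In each line 4 replicates were left without Dox (Control) and 4 received 1 µg/ml Dox for 72 h, all in medium with tetracycline-depleted serum. In these bulk samples, fewer cells of a type and less RNA per cell cannot be told apart.

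The 24 libraries held between 17210989 and 43018494 counted reads. Of the carcinoma markers chosen for Panc-1, KRT8 lay between 742 and 3159 mean CPM over the 6 groups, KRT18 between 522 and 1797 and VIM between 3808 and 6806. KRT7 lay between 1.44 and 5.6. KRT19 and SOX9 were on the same list, and their levels are not given here. Of 10 markers of other cell types, PTPRC, CD3E, PECAM1, CPA1, CELA3A and INS were not among the genes listed in any table, ACTA2 lay between 0.541 and 2.19 mean CPM, and CD68 (33.3 to 257) and COL1A1 (64.5 to 153) were measured in every group. COL3A1 was listed for Tet-PTF1a only. The library Tet-One Dox replicate 1 stood apart from the other 7 of its line, and Tet-MIST1 Dox replicate 1 did so to a lesser degree. In both, short transcripts were over-represented relative to the other libraries of the line. For each library, log2 levels were taken relative to each gene's mean over its line. Their slope on exon length was -0.276 per doubling in Tet-One Dox replicate 1 and -0.124 in Tet-MIST1 Dox replicate 1. In the other 6 Dox and all 8 Control libraries of both lines that slope lay between -0.0194 and 0.0557. Members are short genes, with a median exon length of 1320 bases against 3180 over all listed genes, so the results of these lines are given with and without those 2 libraries.

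Member genes are spread over 21 chromosomes, and 25 of the 76 with a single listed locus (32.9%) began within 1000 bases of another listed gene transcribed the opposite way, against 15.1% of 14258 listed genes. One such pair consists of 2 members, MRPL46 and MRPS11, whose listed starts lie 51 bases apart on chromosome 15 in the human assembly hg19. Promoter sequences of RefSeq (GRCh38.p14) matched 68 of the 77 members. They were matched by symbol, and their starts can differ from the hg19 starts of the listed genes. For MRPL46 and MRPS11, the RefSeq starts lie farther apart than the hg19 starts. In the 250 bases before the start, CCGGAAG, a site of ETS factors such as the NRF2 subunit GABPA, was found on either strand in 32.4% of member promoters, in 15.4% of 10505 listed genes and in 8.82% of all 27305 promoters. The site of NRF1, with its central base left free, was found in 11.8% of member promoters and in 10.1% of those of listed genes. The E box CANNTG, the site of bHLH factors, was found in 51.5% of member promoters and in 53% of those of listed genes. No ETS match overlapped an E box match in a member promoter. These shares describe the letters in the windows and were not tested. The sequences that follow belong to members with the largest changes or with opposite changes, in capitals where CCGGAAG or CANNTG matched on either strand. MRPL22 (chr5:154940823-154941072, plus strand) rose most in Tet-MIST1, MRPL34 (chr19:17292323-17292572, plus strand) rose in both inducible lines, MRPL40 (chr22:19432295-19432544, plus strand) changed in opposite directions in them, MRPS10 (chr6:42217862-42218111, minus strand) fell most in Tet-PTF1a, and MRPS11 (chr15:88467458-88467707, plus strand) is the member that shares its start region with MRPL46.
MRPL22: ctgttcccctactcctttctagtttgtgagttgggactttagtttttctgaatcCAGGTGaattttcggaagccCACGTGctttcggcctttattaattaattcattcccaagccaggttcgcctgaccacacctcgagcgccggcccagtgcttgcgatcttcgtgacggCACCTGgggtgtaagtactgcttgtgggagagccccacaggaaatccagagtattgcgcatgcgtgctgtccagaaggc
MRPL34: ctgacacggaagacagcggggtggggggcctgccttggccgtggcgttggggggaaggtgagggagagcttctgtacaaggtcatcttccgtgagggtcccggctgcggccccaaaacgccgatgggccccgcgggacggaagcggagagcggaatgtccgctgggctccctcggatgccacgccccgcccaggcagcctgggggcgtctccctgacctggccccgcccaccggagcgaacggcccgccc
MRPL40: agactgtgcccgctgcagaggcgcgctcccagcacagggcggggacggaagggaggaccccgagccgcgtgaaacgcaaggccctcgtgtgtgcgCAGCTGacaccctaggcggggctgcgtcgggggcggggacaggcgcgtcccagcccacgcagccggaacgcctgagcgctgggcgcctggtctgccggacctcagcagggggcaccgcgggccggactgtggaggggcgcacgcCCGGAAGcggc
MRPS10: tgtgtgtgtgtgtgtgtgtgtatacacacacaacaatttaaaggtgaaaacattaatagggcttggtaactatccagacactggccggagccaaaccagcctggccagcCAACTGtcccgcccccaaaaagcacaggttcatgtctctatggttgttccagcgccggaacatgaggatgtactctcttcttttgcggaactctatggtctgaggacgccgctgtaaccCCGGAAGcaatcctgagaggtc
MRPS11: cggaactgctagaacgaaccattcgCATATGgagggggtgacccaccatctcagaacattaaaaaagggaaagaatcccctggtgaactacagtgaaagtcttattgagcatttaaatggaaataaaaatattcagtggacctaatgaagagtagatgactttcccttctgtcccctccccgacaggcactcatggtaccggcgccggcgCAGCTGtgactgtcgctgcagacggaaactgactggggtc
The MRPL22 window held 3 E boxes, which began 196, 176 and 79 bases before the start. The MRPL40 window held 1 E box and 1 ETS match, as did the MRPS10 window, and the MRPS11 window held 2 E boxes. The MRPL34 window held neither motif, but it may lie before another start than that of the counted gene. Between its end in GRCh38 and the listed start in hg19, the gap was larger than for MRPL4 on the same chromosome. An E box was held by 4 of 10 members induced in Tet-MIST1 with a promoter sequence and 1 of 2 repressed there, and by 4 of 7 induced and 5 of 10 repressed in Tet-PTF1a, beside 53% of listed genes.

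Member transcripts were abundant for their length. In Control cells the median level, as CPM per kilobase of listed exon, was 42.3 for Tet-One, 52.7 for Tet-MIST1 and 35.5 for Tet-PTF1a, against 8.34, 8.29 and 8.49 over all listed genes. On this scale the highest member by the mean over the lines was MRPS12, a protein of the decoding centre of the small subunit, at 183 ± 22.4 (SD, n = 4) for Tet-One, 325 ± 7.89 for Tet-MIST1 and 132 ± 4.03 for Tet-PTF1a. MRPL51 at 143 ± 5.04, 166 ± 6.01 and 115 ± 2.48 and MRPL3 at 123 ± 4.12, 145 ± 3.34 and 135 ± 1.09 followed. In Tet-PTF1a, MRPL3 and MRPS12 lay within their spread of each other, and in the other lines MRPS12 stood above both. At the low end, MRPL57 had 7.14 ± 0.679, 5.42 ± 0.177 and 6.50 ± 0.377, MRPS25 7.38 ± 0.0886, 10.5 ± 0.124 and 7.40 ± 0.206, and MRPS14 9.34 ± 0.490, 11.4 ± 0.315 and 9.84 ± 0.547 CPM per kilobase. MRPL57 and MRPS25 did not differ beyond their spread in Tet-One and did so in the other 2 lines. MRPS24 was lower still, at 1.97 ± 0.654 in Tet-One and 2.89 ± 0.787 in Tet-MIST1. The proteins are present in 1 copy per ribosome for nearly all members, and the upper and lower quartiles of their transcript levels were 2.94-fold apart for Tet-One, 2.92-fold for Tet-MIST1 and 2.98-fold for Tet-PTF1a. The order of the members was nearly the same in each line, with Spearman's rho of 0.97, 0.954 and 0.94 between pairs of lines over 75 genes, which share their lengths and base composition.

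**Figure D1:**
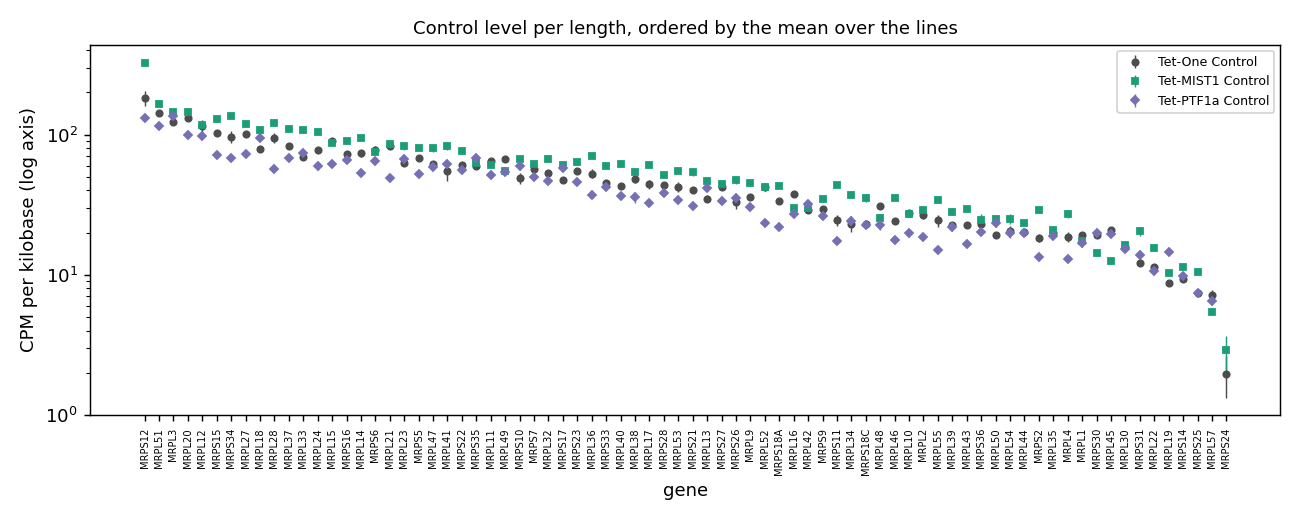
Each member's mean level in Control cells, as CPM per kilobase of exon on a log axis, with the SD over 4 replicates, ordered by the mean over the lines. MRPS12 stands highest, MRPS24 lowest, and the 3 lines keep nearly the same order.

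The whole group took a different share of the counted reads in each line. The 76 members common to all tables took 0.496, 0.506, 0.5 and 0.525% of the reads in Tet-One Control, 0.602, 0.616, 0.601 and 0.629% in Tet-MIST1 Control and 0.428, 0.424, 0.432 and 0.432% in Tet-PTF1a Control. The Control groups did not overlap. Between Tet-One and Tet-MIST1, whose tables listed the same genes, clone and passage cannot be told apart as sources of the difference. Between Tet-One and Tet-PTF1a, which shared a passage number, clone and the genes listed cannot be told apart. With Dox, the shares were 0.736, 0.506, 0.509 and 0.491% in Tet-One, 0.723, 0.599, 0.631 and 0.640% in Tet-MIST1 and 0.437, 0.438, 0.429 and 0.445% in Tet-PTF1a. In every line Dox libraries overlapped the Control libraries. In Tet-One, replicate 1 alone lay above the Controls, and the other 3 had a mean of 0.502 ± 0.00952% (SD, n = 3) against 0.507 ± 0.0132% (n = 4) without Dox. Without replicate 1, the Tet-MIST1 mean was 0.623 ± 0.0212% (n = 3) against 0.612 ± 0.0133% (n = 4). The cytosolic ribosomal proteins, which are short transcripts too, moved with the members, at 9.67% of the reads in Tet-One Dox replicate 1 and 5.6 to 5.97% in the other 7 Tet-One libraries.

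**Figure D2:**
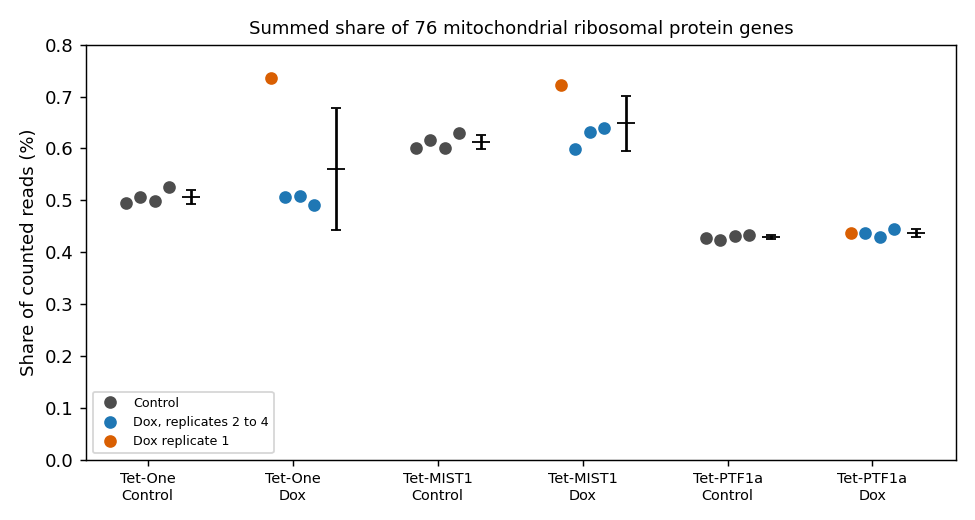
Share of counted reads on the 76 members found in all tables, in percent, with 1 point per library and the mean ± SD of each group beside the points. Tet-One Dox replicate 1 (0.736%) and Tet-MIST1 Dox replicate 1 (0.723%) lie above the rest of their groups, and the Tet-PTF1a groups overlap between 0.424 and 0.445%.

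In the empty-plasmid line, which asks what Dox did by itself, no member passed an FDR of 0.05. By edgeR's quasi-likelihood test 0 of 77 members were called, against 0% of all 13428 genes, and the likelihood ratio test of edgeR and the Wald test of DESeq2 also called 0. Before adjustment, 2 members had p under 0.05, against 2.99% of all genes, with 4 by the likelihood ratio test and 3 by DESeq2. Of the 77, 75 had a higher mean with Dox, and the median log2 fold change was 0.17 against 0.0039 over all genes. That direction rested on Tet-One Dox replicate 1. Without it 23 members were higher and 54 lower, the median was -0.045, 0 were called against 0.00746% of all genes (1 gene), and 8 had p under 0.05, against 12.2% of all 13407 genes. The coefficient of variation between libraries was 14.4% with that library and 4.79% without it.

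Single members show the same. MRPS12 had 205, 259, 233 and 272 CPM in Tet-One Control and 523, 277, 255 and 249 with Dox. Dox replicate 1 lay far above the Controls, replicate 2 just above them and the others within their range. The log2 fold change was 0.43 (SE 0.24, FDR 0.897) with all libraries and 0.10 (SE 0.094, FDR 0.714) without replicate 1. MRPL12, which binds the L10 protein in the stalk of the large subunit, had 101, 119, 114 and 132 CPM without Dox and 257, 133, 125 and 124 with Dox. Its Dox libraries were ordered in the same way, and without that library the change was 0.12 (SE 0.074, FDR 0.532). Its stalk partner MRPL10 had a change of 0.061 (SE 0.092, FDR 0.897), and -0.034 (SE 0.045, FDR 0.796) without replicate 1. MRPL11, at the factor-binding site of the large subunit, had changes of 0.37 (SE 0.23, FDR 0.897) and 0.038 (SE 0.045, FDR 0.774). The tunnel-exit proteins showed the same pattern with smaller values. MRPL23 had changes of 0.33 and 0.018, MRPL24 of 0.17 and -0.078, MRPL22 of 0.14 and -0.066, and MRPL45, which helps to anchor the ribosome at the inner membrane, of 0.092 and -0.063. MRPS7, a protein of the small-subunit head, had 0.18 and -0.030.

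The member with the smallest p in Tet-One was MRPS24, at 0.847, 1.18, 1.90 and 1.55 CPM in Control and 3.66, 2.79, 2.14 and 1.87 with Dox. These groups overlapped, at 34 to 80 reads per Control library and 68 to 142 per Dox library. Its change was 0.91 (SE 0.28, unadjusted p = 0.0096 in edgeR's quasi-likelihood test, FDR 0.897), and 0.70 (SE 0.22, FDR 0.281) without replicate 1. It was the member with the fewest reads in the tables. MRPS26 was higher in all 4 Dox libraries, at 63.1, 40.6, 38.2 and 39.0 CPM, than in the Controls at 29.1, 35.2, 36.5 and 37.1 CPM. Its change of 0.39 (SE 0.17, FDR 0.897) became 0.18 (SE 0.071, FDR 0.329) without replicate 1. MRPS26 and MRPS30 were the 2 members, both higher, whose Tet-One groups did not overlap, against 1.35% of all genes that were higher and 1.06% that were lower without overlap. The other members named by smallest p with all libraries were MRPL34 (0.42, SE 0.19) and MRPL41 (0.55, SE 0.28). Those named without replicate 1 were MRPL33 (-0.13, SE 0.047), MRPS6 (-0.13, SE 0.050) and MRPL42 (-0.090, SE 0.040), and none passed the FDR limit. Without replicate 1, the median standard error of a member was 0.051 on the log2 scale, and 76 of the 77 changes were smaller than 0.2 in size, the exception being MRPS24.

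Exon length moved with these values. With all Tet-One libraries the median log2 fold change was 0.22 over the 25 shortest members, 0.18 over the middle 25 and 0.10 over the 26 longest, and without replicate 1 the medians were -0.052, -0.045 and -0.017. With the length trend removed from each library, 55 of 77 members were still higher, with a median of 0.045, and with the length and GC trends removed 66 were, with a median of 0.072. Both subunits gave the same picture, with 49 of 50 large-subunit and 26 of 27 small-subunit members higher with all libraries, and 14 and 9 of them without replicate 1. Dox replicate 1 was far enough above the other 3 to be set apart by Dixon's criterion in the Dox group of 58 of the 77 members, where chance sets apart about 1 in 20 groups.

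**Figure D3:**
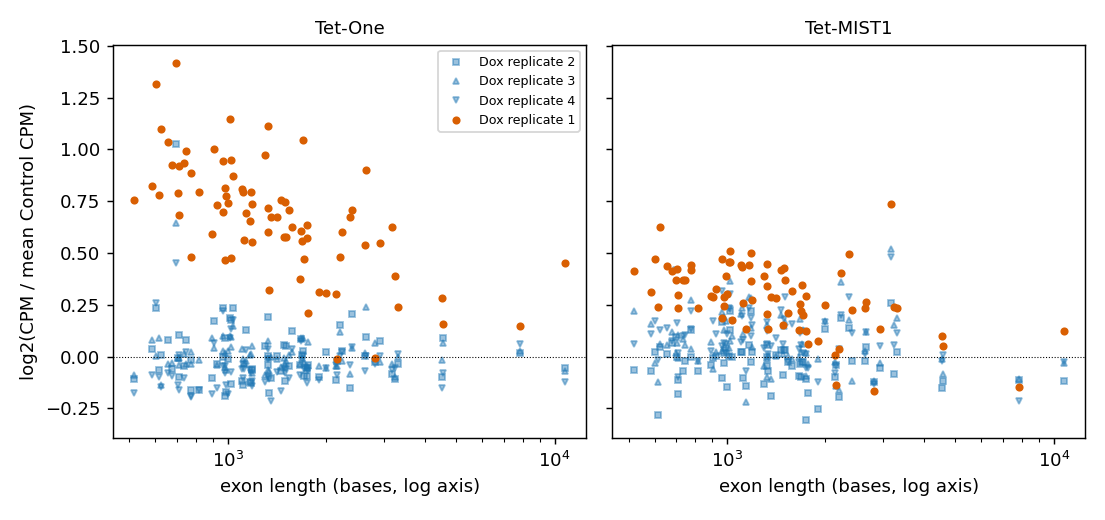
Each member's log2 ratio of its CPM in 1 Dox library to the mean Control CPM, against exon length in bases on a log axis, in Tet-One and Tet-MIST1. Replicate 1 lies above the others for most members, farthest for short genes in Tet-One, while the other 3 Tet-One Dox libraries scatter around 0 except at MRPS24.

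In Tet-MIST1 cells, 11 members rose with Dox and 2 fell. These 13 of 77 are 16.9%, against 20.6% of all 13623 genes tested (11.9% rose and 8.77% fell), and 22.2% of the 5277 genes with a mean level in the same range as the central members. Before adjustment 25 members had p under 0.05, against 36.7% of all genes. Of the 11 that rose, 8 encode large-subunit proteins. With all libraries the median over the 77 was 0.12 against -0.0036 over all genes, and 64 were higher. Without Tet-MIST1 Dox replicate 1 the median was 0.046, 48 were higher, and 12 members rose and 4 fell, against 14.3% and 11.3% of all genes, with all 13 of the first set called again in the same direction. With the length trend removed the median was 0.013, and 9 members rose and 6 fell, against 12.7% and 11.5% of all genes, with 10 of the 13 among them. The count of induced members ranged from 5 without Control replicate 1 or Control replicate 3, where 7.24% and 7.07% of all genes rose, to 26 without Dox replicate 2, where 15% rose, and was 8 without Control replicate 2, 9 without Control replicate 4 or Dox replicate 3 and 8 without Dox replicate 4. Neither fall was called when any 1 of the 4 Control libraries or Dox replicate 4 was left out, and 1 was when Dox replicate 3 was.

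The member that rose most in Tet-MIST1 was MRPL22 (chr5:154320633-154348971, plus strand, hg19), a core protein that lines the exit tunnel. Its Control libraries had 47.6, 51.9, 46.3 and 51.7 CPM and its Dox libraries 82.2, 59.1, 70.7 and 68.9 CPM. All Dox libraries lay above all Controls, with replicate 1 highest. The log2 fold change was 0.51 (SE 0.085, FDR 0.0021), and 0.43 (SE 0.058, FDR 1.2e-05) without replicate 1. MRPL50 (chr9:104152249-104160919, minus strand), a mitochondria-specific protein of the large subunit, went from 24.4, 25.9, 25.4 and 26.5 CPM to 35.2, 29.8, 32.9 and 31.5 CPM. These groups did not overlap either, and the change was 0.34 (SE 0.058, FDR 0.0023). MRPL34 (chr19:17416477-17417652, plus strand), a very small large-subunit protein, had 36.4, 33.7, 35.9 and 36.5 CPM and 49.4, 40.0, 41.4 and 44.3 CPM with Dox. Its rise of 0.30 (SE 0.066, FDR 0.0097) again had no overlap between groups.

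MRPL16, next to the peptidyl transferase centre, rose by 0.30 (SE 0.068, FDR 0.0099), from 35.4 ± 1.24 to 43.7 ± 4.43 CPM (SD, n = 4). MRPS14, in the head of the small subunit, rose by 0.29 (SE 0.059, FDR 0.0062), from 25.5 ± 0.705 to 31.2 ± 2.39 CPM. MRPL17, beside the exit tunnel, rose by 0.28 (SE 0.069, FDR 0.015), from 143 ± 2.55 to 174 ± 20.1 CPM. MRPL22, MRPL50, MRPL34, MRPL16 and MRPS14 were the 5 members called with each library left out in turn, with DESeq2, with the replicate block and with the trends removed. MRPL40, a mitochondria-specific protein, had 46.4, 50.0, 45.5 and 50.2 CPM in Control and 65.2, 52.4, 57.9 and 56.0 CPM with Dox, a rise of 0.27 (SE 0.067, FDR 0.016) without overlap. MRPL39 (0.26), MRPS9 (0.23), MRPS11 (0.22) and MRPL10 (0.18) made up the rest, and for MRPS9 and MRPS11 the groups overlapped. In all, 12 members had Dox libraries that all lay above the Controls and 3 had Dox libraries that all lay below, against 14.1% and 12.9% of all genes.

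The 2 members that fell were longer than the median member. MRPL19, a large-subunit protein with 7827 bases of exon, had 81.4, 81.0, 80.2 and 80.1 CPM in Control and 72.9, 74.5, 74.9 and 69.5 CPM with Dox, a change of -0.14 (SE 0.042, FDR 0.032). Its groups did not overlap, and with the length and GC trends removed the change was -0.082 (FDR 0.125). MRPS27, a mitochondria-specific small-subunit protein with a PPR fold, fell from 126 ± 3.12 to 115 ± 1.65 CPM, a change of -0.13 (SE 0.040, FDR 0.035). Role genes that did not pass in this line were MRPS12 (0.15, FDR 0.238), MRPL12 (0.20, FDR 0.128), MRPL11 (0.13, FDR 0.177), MRPL23 (0.14, FDR 0.22), MRPL24 (0.12, FDR 0.217), MRPL45 (0.083, FDR 0.36) and MRPS7 (0.10, FDR 0.266). By role, 5 of 29 large-subunit members with a bacterial counterpart rose and 1 fell, 3 of 21 mitochondria-specific large-subunit members rose, 3 of 17 small-subunit members with a counterpart rose, and 1 of the other 10 small-subunit members fell.

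**Figure D4:**
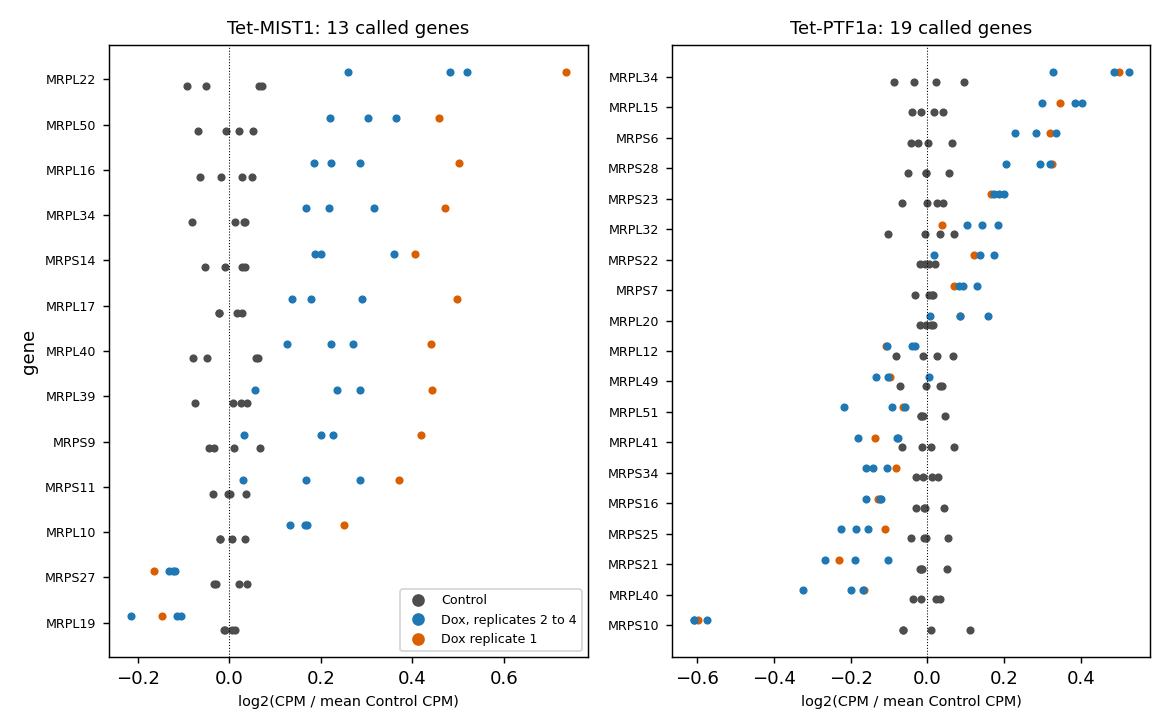
Log2 ratio of each library's CPM to the mean Control CPM for the 13 members called in Tet-MIST1 and the 19 called in Tet-PTF1a, with Control, Dox replicate 1 and the other Dox replicates marked. In Tet-MIST1, Dox replicate 1 is the highest library of all 11 induced members, and in Tet-PTF1a it lies among the others.

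In Tet-PTF1a cells, 9 members rose and 10 fell, with no shift of the group. The 19 of 76 are 25%, against 48.2% of all 14053 genes tested (23.8% rose and 24.4% fell) and 53.3% of 5292 genes of like level, and 26 members had an unadjusted p under 0.05 against 53.6% of all genes. The median change over the members was 0.00038 against 0.0014 over all genes, 38 were higher and 38 lower, and 92.1% of the changes were below 0.2 in size, as were 66.8% of those of all genes. With scaling by library size alone, without the TMM factors, 19 members rose and 6 fell in place of 9 and 10. Of all genes 31.3% rose and 19.2% fell in that fit, so the split in direction depended on the scaling. Leaving out each library gave 8 to 11 induced and 7 to 12 repressed members. Groups did not overlap for 9 members higher with Dox and 9 lower, against 20.8% and 21.4% of all genes. By role, 4 of 29 large-subunit members with a bacterial counterpart rose and 1 fell, 0 of 21 mitochondria-specific large-subunit members rose and 4 fell, 3 of 16 small-subunit members with a counterpart rose and 3 fell, and 2 of the other 10 rose and 2 fell.

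**Figure D5:**
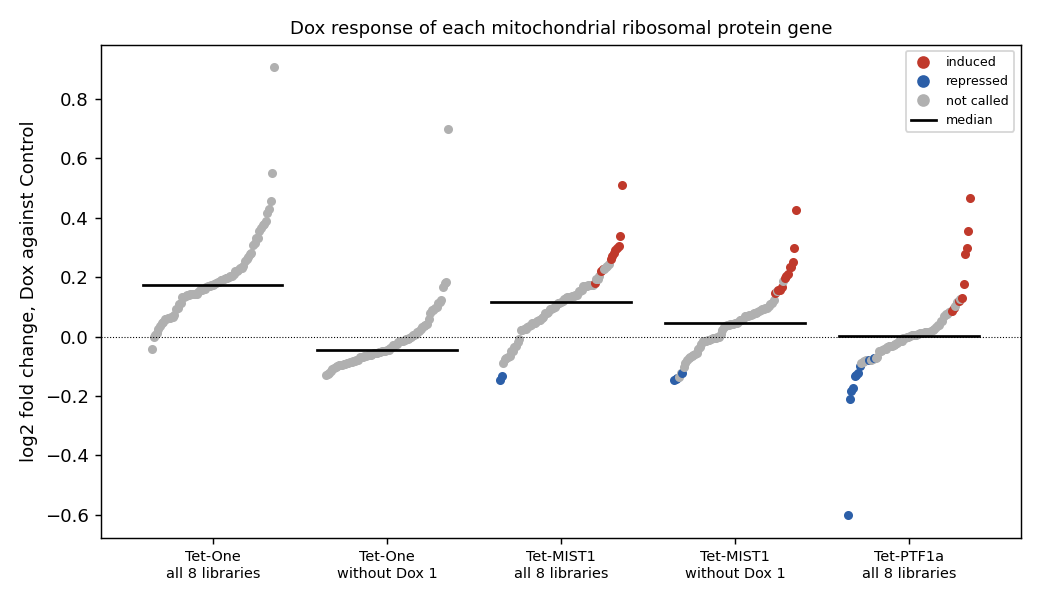
Log2 fold change with Dox of every member in each line, sorted within a column, with the median as a bar and called members in colour. The Tet-One median is 0.17 with all libraries and -0.045 without Dox replicate 1, and the Tet-PTF1a median is close to 0 with single members far from it.

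The largest change of any called member was the fall of MRPS10 in Tet-PTF1a (chr6:42174539-42185633, minus strand, hg19). MRPS10 is a protein of the small-subunit head. Its Control libraries had 138, 122, 122 and 129 CPM and its Dox libraries 84.5, 83.8, 83.9 and 85.9 CPM. All Dox libraries lay far below all Controls and close to each other. The log2 fold change was -0.60 (SE 0.032, FDR 1.3e-19), it was the only member beyond 0.5 in this line, and leaving out any library kept its FDR at or below 6.9e-15. In Tet-One its change was 0.036 (SE 0.11, FDR 0.926). The response of Tet-PTF1a minus that of Tet-One was -0.64 (SE 0.12, FDR 0.0016), and -0.52 (SE 0.075, FDR 1.6e-05) without Tet-One Dox replicate 1.

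MRPL34 rose most, from 22.2, 23.0, 25.2 and 24 CPM to 33.4, 33.9, 29.6 and 33.0 CPM. The groups were well apart, and the change was 0.47 (SE 0.048, FDR 9.7e-12). Next was MRPL15 (chr8:55047781-55061074, plus strand), a large-subunit protein with a bacterial counterpart, at 109, 107, 105 and 111 CPM in Control and 137, 141, 132 and 142 CPM with Dox. Its rise of 0.36 (SE 0.028, FDR 1.4e-15) had the smallest FDR of the induced members. MRPS6, of the small-subunit platform, went from 62.1, 66.9, 62.9 and 64.0 CPM to 79.7, 77.8, 74.8 and 80.6 CPM, a rise of 0.30 (SE 0.032, FDR 5.6e-11) without overlap. MRPS6 shares 223 exon bases on the same strand with SLC5A3, an inositol transporter gene, which rose by 0.38 (SE 0.067, FDR 0.0034) in the same comparison, and the division of reads between the pair was not tested. MRPS28 (chr8:80831095-80942506, minus strand), a small-subunit protein, had 27.2, 26.4, 28.4 and 27.2 CPM and 34.2, 34.0, 33.4 and 31.5 CPM with Dox, a rise of 0.28 (SE 0.044, FDR 5.4e-07). MRPS23 rose by 0.18 (SE 0.031, FDR 4.1e-06), from 68.1 ± 2.19 to 77.2 ± 0.812 CPM. MRPL32, which is processed by the m-AAA protease before it enters the ribosome, rose by 0.13 (SE 0.040, FDR 0.0061), with overlap between groups. MRPS22, MRPS7 and MRPL20 rose by 0.12, 0.097 and 0.087, and MRPS7 overlaps MIF4GD on the other strand, which rose by 0.20 (SE 0.050, FDR 9.5e-04).

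Among the members that fell in Tet-PTF1a, MRPL40 came next after MRPS10. It had 28.0, 29.0, 27.6 and 28.7 CPM in Control and 25.3, 25.2, 22.6 and 24.7 CPM with Dox. The groups did not overlap, and the change was -0.21 (SE 0.046, FDR 1.7e-04). MRPL40 was thus the 1 member called in opposite directions in the 2 inducible lines, and MRPL34 the 1 called in the same direction in both. MRPS21 fell by 0.18 on the log2 scale (SE 0.039, FDR 7.6e-05), from 47.6 ± 1.12 to 41.6 ± 2.04 CPM. MRPS25, a mitochondria-specific small-subunit protein, had 33.7, 32.8, 35.1 and 33.6 CPM and 31.3, 30.4, 29.7 and 28.9 CPM with Dox, a change of -0.17 (SE 0.043, FDR 6.6e-04) without overlap. It differed from Tet-One by -0.24 (SE 0.072, FDR 0.041), a call that was lost in 13 of 16 fits with 1 library left out (FDR 0.0124 to 0.102). MRPS16 fell from 173 ± 3.82 to 158 ± 1.97 CPM, a change of -0.13 (SE 0.025, FDR 1.2e-05). MRPS34 fell from 70.2 ± 1.25 to 64.5 ± 1.57 CPM, a change of -0.13 (SE 0.032, FDR 7.0e-04). MRPL41 (-0.12), MRPL51 (-0.10), MRPL49 (-0.079) and MRPL12 (-0.072, FDR 0.049) fell by less, and MRPL12 no longer passed without Dox replicate 1 (FDR 0.156). Of the other role genes, MRPS12 had -0.049 (FDR 0.104), MRPL24 -0.085 (FDR 0.063), MRPL45 -0.029 (FDR 0.603), MRPL23 -0.020 (FDR 0.668), MRPL10 0.017 (FDR 0.776), MRPL11 0.005 (FDR 0.908) and MRPL22 0.005 (FDR 0.941). In all, 13 of the 19, 7 induced and 6 repressed, were called with each library left out in turn, with DESeq2, with the replicate block and with the trends removed.

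The responses of the inducible lines were also tested against that of Tet-One, in fits that share the Tet-One libraries. Here a larger or smaller response means a higher or lower signed log2 change, so a smaller one can be a stronger fall. For Tet-MIST1, 0 members differed by edgeR's quasi-likelihood test, against 1.69% of 13172 genes (1.5% larger and 0.19% smaller), with 3 members and 11.5% of all genes at an unadjusted p under 0.05. The likelihood ratio test called 0 and DESeq2 called 1, with a smaller response. Without Tet-One Dox replicate 1, 11 members had a larger response in Tet-MIST1 and 1 a smaller one, against 8.21% and 7.05% of all genes, and the counts were also 11 and 1 with Dox replicate 1 of both lines left out, against 8.77% and 8.01%. In that last fit MRPL22 differed by 0.48 (FDR 3.0e-04), MRPL50 by 0.33 (FDR 0.0080), MRPL40 by 0.31 (FDR 0.0083) and MRPL19 by -0.18 (FDR 0.025). For Tet-PTF1a, MRPS10 and MRPS25, which both fell with Dox there, had a lower signed change than in Tet-One. A higher one was called for 0 members, against 7.6% lower, 5.26% higher and 12.9% in all of 13250 genes. Before adjustment, 24.7% of all genes had p under 0.05. Without Tet-One Dox replicate 1, 9 members had a larger and 3 a smaller response, against 15% and 16.1%. In that fit MRPL15 differed by 0.45 (SE 0.047, FDR 8.5e-09) and MRPS6 by 0.43 (SE 0.058, FDR 1.1e-06).

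Other proteins of the mitochondrial ribosome that carry other symbols moved within the same range. Of 6 such genes, 2 rose in Tet-MIST1, AURKAIP1 by 0.30 (SE 0.089, FDR 0.035) and ICT1, a peptidyl-tRNA hydrolase built into the large subunit, by 0.20 (SE 0.063, FDR 0.039). In Tet-PTF1a, ICT1 rose by 0.10 (FDR 0.040), and PTCD3 and GADD45GIP1 fell by 0.10 and 0.14 on the log2 scale. None of the 6 was called in Tet-One by edgeR's quasi-likelihood test, with 0 at an unadjusted p under 0.05.

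Of the genes that work with the mitochondrial ribosome, on 4 lists, 8 of 70 (11.4%) were called in Tet-MIST1, beside 20.6% of all genes, and 20 of 71 (28.2%) in Tet-PTF1a, beside 48.2%. Of 16 translation factors and RNA-binding partners, 2 rose and 1 fell in Tet-MIST1. These were MTRF1, a release factor homologue, with 0.27 (SE 0.063, FDR 0.011), the initiation factor MTIF3 with 0.26 (SE 0.076, FDR 0.031) and LRPPRC, which stabilises mitochondrial messages, with -0.13 (SE 0.040, FDR 0.042). In Tet-PTF1a 2 rose and 3 fell, among them the release factor MTRF1L with 0.37 (SE 0.042, FDR 2.5e-10), LRPPRC with -0.15 (SE 0.021, FDR 3.3e-08) and the elongation factor TUFM with -0.087 (SE 0.024, FDR 0.0019). Of 22 mitochondrial aminoacyl-tRNA synthetases, NARS2 rose (0.23, FDR 0.0080) and LARS2 fell (-0.21, FDR 0.025) in Tet-MIST1. In Tet-PTF1a 3 rose, led by YARS2 (0.23, SE 0.039), and 5 fell, led by CARS2 (-0.24, SE 0.050). SARS2, whose start region is shared with MRPS12, fell by 0.095 on the log2 scale (FDR 0.0041). Of 20 assembly factors, MALSU1 rose (0.28, FDR 0.028) and MTG2 fell (-0.17, FDR 0.038) in Tet-MIST1, and RBFA fell (-0.089, FDR 0.013) in Tet-PTF1a. Regulators of mitochondrial biogenesis gave 1 call of 12 in Tet-MIST1, GABPB2 with -0.31 (SE 0.098, FDR 0.046). In Tet-PTF1a 3 of 13 rose and 3 fell, with TFB2M at 0.17 (FDR 5.2e-04), PPRC1 at 0.14 (FDR 7.0e-05) and PPARGC1B at -0.20 (FDR 0.019). In Tet-MIST1 MTRF1 and NARS2 passed with each library left out, and the others named there, with AURKAIP1 and ICT1, were lost in 3 to 7 of 8 such fits. In Tet-PTF1a ICT1 was lost in 4, PPARGC1B in 3, and GADD45GIP1 and RBFA in 1 of 8 such fits. In Tet-One, 0 genes of these 4 lists were called by edgeR's quasi-likelihood test with or without Dox replicate 1, with 6 at an unadjusted p under 0.05 without it and 1 with it.

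The stress response that follows inhibition of mitochondrial translation in many cell types runs through ATF4, DDIT3 and ATF5 and their targets in serine and one-carbon metabolism. In Tet-One, 0 of 22 genes on this list were called by edgeR's quasi-likelihood test, beside 0% of all genes. Before adjustment, 1 had p under 0.05, beside 2.99% of all genes. A lower mean with Dox was found for 17 of 22, where the median change over all genes was 0.0039. Without Dox replicate 1, 19 of 22 were lower, with a median of -0.27, beside -0.0021 over all genes. Of the 22, 6 had p under 0.05, beside 12.2% of all genes, and 0 were called, beside 0.00746%. ATF4 had a change of -0.31 (FDR 0.364) and DDIT3 of -0.49 (FDR 0.333) in that fit. In Tet-MIST1 4 rose and 1 fell, 22.7% of the list beside 20.6% of all genes, with ALDH1L2, a mitochondrial folate enzyme, at 0.98 (SE 0.14, FDR 7.9e-04), GDF15 at 0.35 (SE 0.059, FDR 0.0022) and SESN2 at -0.26 (SE 0.059, FDR 0.011). In Tet-PTF1a 4 rose and 8 fell, 54.5% of the list beside 48.2% of all genes, with CHAC1 at -1.22 (SE 0.26, FDR 0.0077), DDIT4 at -0.68 (SE 0.076, FDR 3.2e-04), DDIT3 at -0.64 (SE 0.17, FDR 0.022) and ATF4 at -0.52 (SE 0.12, FDR 0.012), against GDF15 at 0.52 (SE 0.15, FDR 0.028). The DDIT3 call was lost without any 1 of the 4 Dox libraries (FDR up to 0.0596), and the GDF15 call in 7 of 8 fits with 1 library left out (FDR up to 0.0766). ATF5 was called in 8 of 8 such fits (FDR up to 6.5e-07), and its change is not given here. The mitochondrially encoded messages, which the mitochondrial ribosome translates, were not analysed here, since no listed gene lay on the mitochondrial chromosome.

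Beside the members, 2 larger groups give the scale. Of the 76 cytosolic ribosomal proteins tested in each line, 6 rose and 0 fell in Tet-MIST1, where 11.9% and 8.77% of all genes did, and 7 rose and 23 fell in Tet-PTF1a, where 23.8% and 24.4% did. Of the nuclear-encoded subunits of oxidative phosphorylation, which assemble with the products of the mitochondrial ribosome, 10 of 78 rose and 0 fell in Tet-MIST1, and 2 of 76 rose and 33 fell in Tet-PTF1a, beside the same shares of all genes. Their medians in Tet-PTF1a were -0.029 and -0.062, beside 0.00038 for the members. In Tet-One 0 genes of either group were called, with 0 and 1 at an unadjusted p under 0.05, and 75 of 76 and 76 of 78 were higher, as were 75 of 77 members. Without Dox replicate 1, 8 of 76 and 17 of 78 were higher, and 34 and 7 had p under 0.05, beside 12.2% of all genes. Differences between these groups and the members were not tested.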

How the data were processed

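RNA from 24 cultures, 4 Control and 4 Dox per line, was measured as reads per gene. The labels give polyadenylated RNA. Per the paper's methods the authors sequenced paired ends, aligned the reads to hg19 with TopHat, and dropped genes unless 4 or more samples exceeded 0.5 CPM. The submitters' processing notes also name HTSeq, DESeq and edgeR without a role, and the counting annotation and its use of strand are not given in the sources used here. The deposited values used were raw counts per gene, 1 table per line, with hg19 exon coordinates and a total exon length. Other deposited columns, the authors' CPM and their comparisons (log2 fold changes, p-values and FDR), were not used, and 0 columns belonged to other samples.

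Samples were grouped by title. Each line was fitted by itself with edgeR 4.0.16 in R 4.3.3 (TMM scaling, robust quasi-likelihood test, Benjamini-Hochberg adjustment over all genes, prior count 2), after keeping genes above 0.5 CPM in at least 4 of 8 libraries. Responses were compared with that of Tet-One in fits over 16 libraries with an interaction term. The paper names 4 biological replicates per group; p-values measure the spread between these cultures of 1 clone. Alternatives were DESeq2 1.42.0, other scalings and filters, a replicate block, each library left out, and removal of length and GC trends per library. Simulated data with known changes were tested for each line by itself, and these results do not cover the alternatives. Of 100 genes changed by 0.4 on the log2 scale, 14% were recovered for Tet-One, against 87% for Tet-MIST1 and 78% for Tet-PTF1a. Changes of 1 were recovered for 100% of such genes whichever line was used. The simulated counts had the same dispersion for every gene and no library with a length trend. They therefore cannot show what the Tet-One fit recovers with Dox replicate 1 in it. In that fit, changes over all genes reached 1.22, and 0 genes were called. Levels between genes are CPM per kilobase of listed exon, without MRPS18B, which was listed on several contigs of chromosome 6. No separate interval for counting error is given, since the standard errors and the SDs over replicates include it.

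Within groups, chi-square per degree of freedom over genes was 1.38 to 236 in 36 replicate pairs, so every pair differed by more than sampling noise. Same-numbered Control and Dox libraries correlated in their deviations at -0.244 to 0.18, with 1 of 12 pairs over 0.1. The main fits used no pairing. This check cannot exclude pairing by number, since it only looks for an effect shared by same-numbered libraries.

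Members and gene lists were chosen with earlier results of these data known. Genes were named by rule: in Tet-MIST1 and Tet-PTF1a the 6 induced and 6 repressed members with the largest changes; in Tet-One the 5 with the smallest p with and without Dox replicate 1; in each line MRPS12, MRPL12, MRPL11, MRPL10, MRPS7, MRPL45, MRPL23, MRPL22 and MRPL24 for their roles; the 3 highest and 3 lowest by level per kilobase; members called in opposite directions; and at most 4 called genes per list and line elsewhere. Other called members, MRPS24 among the levels, MRPS30, SARS2, SLC5A3 and MIF4GD were named after their values were seen. For the stress list in Tet-PTF1a more called genes were named than that limit allows.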

Additional observations from a re-analysis of the deposited data

Results flagged for a closer look

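In the Tet-One Dox group 1 library lay apart from the other 3 by Dixon's criterion, which chance meets in about 1 in 20 groups. This was Dox replicate 1, in which the members took 0.7357% of the counted reads. Among the members named in that line it also lay apart for MRPL11 at 229.6 CPM, MRPL12 at 257.5, MRPL22 at 55.41, MRPL23 at 93.02, MRPL24 at 119.5, MRPL33 at 60.13, MRPL34 at 43.21, MRPL41 at 83.06, MRPL42 at 123.8, MRPL45 at 49.43, MRPS12 at 523.3, MRPS26 at 63.1, MRPS6 at 132.2 and MRPS7 at 129.2 CPM. Over all members, 58 of 77 Tet-One Dox groups had a library that lay apart, against 2 of 77 in Tet-One Control, 4 and 5 of 77 in Tet-MIST1 Control and Dox, and 3 and 2 of 76 in Tet-PTF1a Control and Dox. The slope on exon length of log2 level relative to the line mean was -0.276 per doubling in the same library. The part of that slope in these values was not tested gene by gene. By the same criterion 1 Control library lay apart for MRPL23 in Tet-MIST1 at 66.24 CPM, for MRPL10 in Tet-PTF1a at 35.85 CPM and for MRPS21 in Tet-PTF1a at 49.33 CPM.

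The response to Dox differed between Tet-PTF1a and Tet-One for MRPS10, by -0.6394 on the log2 scale (FDR 0.0016), and for MRPS25, by -0.2378 (FDR 0.041), in edgeR's quasi-likelihood test of the interaction. With 1 library left out, MRPS10 was called in 16 of 16 fits and MRPS25 in 3, and MRPS25 was also lost with the likelihood ratio test, library-size or upper-quartile scaling, the replicate block and the trends removed. Clone and induced factor cannot be told apart in this difference.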

How the results depend on the processing

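Of 1099 combinations of a named member and an alternative, 1042 kept direction and side of the threshold, 49 lost the call, 7 gained one and 1 reversed, MRPL12 in Tet-PTF1a, at 0.004988 without Dox replicate 1 and with the length and GC trends removed. In Tet-MIST1 (11 induced, 2 repressed) the replicate block gave 6 and 0, one fit over all 24 libraries 3 induced, removal of the length trend 6 repressed and a median of 0.01275, removal of the length and GC trends 8 and 0.01156, the same without Dox replicate 1 13 and -0.01579, and a required change of 0.2 0 repressed. In Tet-PTF1a (9 and 10) library-size scaling gave 19 and 6 and a median of 0.03745, against 0.038 over all genes, removal of the length trend 14 induced, the same with GC and without Dox replicate 1 14, the fit over all 24 libraries 2 and 2, and a required change of 0.2 4 and 2. The block gave 10 and 11 there and 0 in Tet-One, and whether equal replicate numbers mark paired samples is not known here.

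In the comparisons against Tet-One, larger and smaller refer to the signed log2 change. The count for Tet-MIST1 (0 larger, 0 smaller) became 1 smaller with DESeq2 and with the length trend removed, 1 and 1 with both trends removed, and 11 and 1 with both Dox replicates 1 left out. For Tet-PTF1a (0 and 2) it became 3 larger with the length trend removed, 2 and 1 with both trends removed, and 1 smaller with the likelihood ratio test, library-size scaling, upper-quartile scaling or the replicate block. The summed level in Tet-PTF1a with TMM scaling was -0.01048 as a log2 ratio of Dox to Control, in place of 0.0264. The cause of these shifts was not tested.

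Leaving out each library gave, in Tet-One, medians of -0.04531 to 0.2599 and 0 induced or repressed members, in Tet-MIST1 medians of 0.0455 to 0.1622, 5 to 26 induced and 0 to 4 repressed, and in Tet-PTF1a medians of -0.01229 to 0.006509, 8 to 11 induced and 7 to 12 repressed. Against Tet-One it gave 0 to 11 larger and 0 to 1 smaller signed changes for Tet-MIST1, and 0 to 9 and 1 to 3 for Tet-PTF1a. The log2 ratio of summed level ranged from -0.01289 to 0.204 in Tet-One, 0.02626 to 0.1186 in Tet-MIST1 and 0.01731 to 0.03578 in Tet-PTF1a. The reach of the Tet-One comparison was limited by Dox replicate 1, with which the median standard error of a member was 0.167.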
